A study of Mus musculus with 20 samples.

Results

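The 6 long non-coding RNAs *Malat1*, *Neat1*, *Gas5*, *Snhg1*, *Snhg8* and *Snhg12* were followed in single thymic precursors of intraepithelial lymphocytes (IELPs), the cells that give rise to unconventional T cells of the gut lining. They were taken from 25246 genes by their names in the count tables, all 6 were listed in all 20 libraries, and *Malat1* was chosen by its large difference in level between the mice, which is therefore a description here and not a finding. The IELPs were CD4-CD8-TCRαβ+ thymocytes, NK1.1- in the study's methods and NK1.1+ in its deposited design text, and were sorted into wells by CD122 and by ZsGreen, a reporter of the transcription factor T-bet (TBGR). The TBGR mouse was 4 weeks old, is labelled wild type and gave 8 libraries, 2 for each of 4 sorted populations, which were CD122-T-bet-, then CD122+T-bet-, then CD122+T-bet int, and last CD122+T-bet high. The TBGR C-mycfl/fl mouse was 2 weeks old, is labelled with floxed C-myc alleles and no Cre while the deposited design text names only a TBGR mouse for that run, and gave 8 libraries, of which 4 held both T-bet- populations and 4 held CD122+T-bet int cells beside CD122+T-bet high cells. The TBGR C-mycD/DCd4 mouse was 2 weeks old, lost C-myc through a Cre driven by Cd4, which is active from the CD4+CD8+ stage of thymocytes on, and gave 2 libraries for each T-bet- population. The ratio of a population to the one before it in this order is called here the CD122 step, the T-bet int step and the T-bet high step. The study writes both of a mouse and of mice for these sorts, and each genotype is treated here as 1 mouse with technical libraries. No test was therefore run between groups, and mouse, genotype, age and library preparation cannot be told apart.

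*Malat1* and *Neat1* are neighbours in the genome and stay in the nucleus, where *Malat1* collects in nuclear speckles, the stores of splicing factors, and *Neat1* is the scaffold on which paraspeckles are built. *Gas5*, *Snhg1*, *Snhg8* and *Snhg12* are host genes of small nucleolar RNAs (snoRNAs): their introns are trimmed into snoRNAs that guide the chemical modification of ribosomal RNA, and their spliced RNAs leave the nucleus and are mostly broken down by nonsense-mediated decay. *Gas5* was named for its accumulation in growth-arrested cells, and several snoRNA hosts are transcribed, like the ribosomal protein genes, from starts followed by a run of C and T (a TOP motif), which couples their fate to translation.

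In the GENCODE M21 annotation of the mouse genome (GRCm38), *Malat1* lies on the minus strand at chr19:5795690-5802672 and *Neat1* at chr19:5824708-5845478 on the same strand, 22035 bases apart. *Gas5* lies on the plus strand at chr1:161034422-161038539 with 10 small RNA entries in its introns, *Snhg1* at chr19:8723475-8726443 on the plus strand with 8, *Snhg8* at chr3:123507552-123508404 on the minus strand with 1, and *Snhg12* at chr4:132308623-132311024 on the plus strand with 5. The 100 bases around a RefSeq transcription start (GRCm38.p6) are given 5′ to 3′, 50 bases before the start and 50 from it on, because they set the starts of the hosts beside that of *Malat1*. Capitals mark a C followed by at least 4 more C or T that began within 5 bases of the start on the transcribed strand, and RefSeq gave no promoter entry for *Neat1*.
Malat1, chr19:5802623-5802722, minus strand: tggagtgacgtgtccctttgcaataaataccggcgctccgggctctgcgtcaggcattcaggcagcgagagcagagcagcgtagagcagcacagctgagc
Gas5, chr1:161035116-161035215, plus strand: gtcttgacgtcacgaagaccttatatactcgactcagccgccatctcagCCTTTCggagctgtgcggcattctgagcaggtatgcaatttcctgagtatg
Snhg1, chr19:8723437-8723536, plus strand: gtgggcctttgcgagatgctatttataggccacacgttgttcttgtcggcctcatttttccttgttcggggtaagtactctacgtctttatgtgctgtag
Snhg8, chr3:123508287-123508386, minus strand: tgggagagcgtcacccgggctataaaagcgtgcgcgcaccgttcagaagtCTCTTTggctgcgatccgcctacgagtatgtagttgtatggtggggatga
Snhg12, chr4:132308628-132308727, plus strand: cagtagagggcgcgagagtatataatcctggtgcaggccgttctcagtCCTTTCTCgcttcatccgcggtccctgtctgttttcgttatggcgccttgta
*Gas5* has another RefSeq start upstream without such a run, and the start printed was chosen after the sequences were seen. *Gas5*, *Snhg8* and *Snhg12* thus held a run at the start shown and *Snhg1* and *Malat1* did not, and 18.3% of 32851 RefSeq promoters held one. The E-box CACGTG, the motif to which C-Myc and its partner Max are known to bind, was in none of the 300-base promoter windows of the 5 genes on either strand, and was in 7.15% of all promoters. A match is a description of these letters alone.

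Values are transcripts of a gene per 1000000 transcripts (CPM), summed over the cells of a library and sorted population, without mitochondrial genes and spike-ins. With a minimum of 2000 transcripts per cell, 1413 of 1920 cells were kept, 678 of the TBGR, 470 of the TBGR C-mycfl/fl and 265 of the TBGR C-mycD/DCd4 mouse. They formed 28 library-by-population units of 22 to 94 cells with 94268 to 775264 transcripts, so that a count of 0 allows 3.87 to 31.8 CPM. A set of 16 genes that mark low-quality cells, led by *Gm10800*, took 8.62% to 35.5% of the transcripts in TBGR units, 22.9% to 63.0% in TBGR C-mycfl/fl units and 30.3% to 41.1% in TBGR C-mycD/DCd4 units, so the main levels and ratios are also given with these marks left out of the total. Spike-in RNA was counted at 9.83 to 11.6 transcripts per TBGR cell and at 0 in both 2-week mice. In TBGR cells, the sort was visible in *Il2rb*, which encodes CD122, at 7.14 CPM in CD122-T-bet- and 269 to 515 CPM in the other populations, and in *Tbx21*, which encodes T-bet, at 0, 1.36, 48.0 and 165 CPM in the order of the sort. T cell markers were present in every unit (7 of 8 listed genes in the tables, 2705 to 8119 CPM in all). *Myc* was still counted in TBGR C-mycD/DCd4 cells, at 16.7 and 30.0 CPM in the CD122-T-bet- libraries and at 9.96 and 44.5 CPM in the CD122+T-bet- ones, against 14.0 to 63.0 and 10.6 to 135 CPM in the TBGR C-mycfl/fl libraries. Whether the counted part of *Myc* lies within the deleted part is not given in the sources used here.

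*Malat1* was counted in every unit and was higher in the TBGR mouse than in the TBGR C-mycfl/fl mouse in all 4 sorted populations. In CD122-T-bet- cells it was at 7665 and 5171 CPM in the 2 TBGR libraries, at 1459, 1721, 1156 and 756 CPM in the 4 TBGR C-mycfl/fl libraries, and at 4342 and 3552 CPM in the 2 TBGR C-mycD/DCd4 libraries. In CD122+T-bet- cells the TBGR libraries held 7546 and 9080 CPM, the TBGR C-mycfl/fl libraries 1212, 1429, 1683 and 668 CPM, and the TBGR C-mycD/DCd4 libraries 7127 and 9175 CPM. In both populations the libraries of TBGR C-mycfl/fl therefore did not overlap with those of either other mouse, and the mice of 2 weeks stood farther apart than the libraries of each. Against the TBGR mouse, the libraries of 61.5% and 51% of all genes did not overlap in these populations. Against the TBGR C-mycD/DCd4 mouse, it was 37.1% and 47%.

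In CD122+T-bet int cells *Malat1* was at 5161 and 5303 CPM in the TBGR libraries and at 1004, 1035, 896 and 1032 CPM in the TBGR C-mycfl/fl libraries. In CD122+T-bet high cells it was at 7775 and 5294 CPM against 1078, 822, 1458 and 1218 CPM. The TBGR C-mycfl/fl libraries again lay below those of the TBGR mouse throughout, and this held with the marks left out, where TBGR units ranged from 5724 to 10888, TBGR C-mycfl/fl units from 1225 to 4233 and TBGR C-mycD/DCd4 units from 5384 to 13171 CPM.

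**Figure D1:**
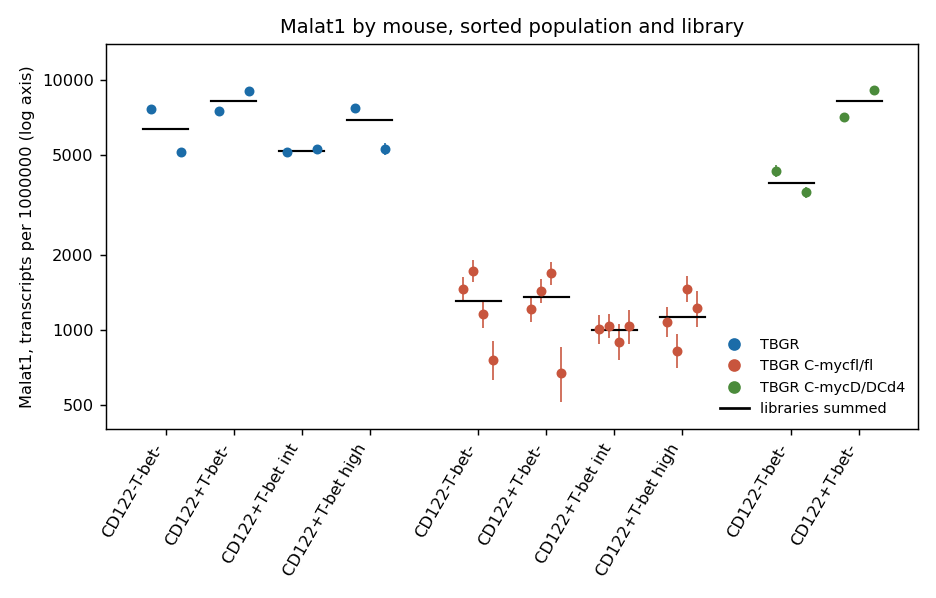
*Malat1* in transcripts per 1000000 (log axis) for each library, by sorted population and mouse. Points are libraries with exact 95% Poisson intervals, which cover counting error only, and black bars are the libraries summed. The TBGR libraries lie between 5161 and 9080 and the TBGR C-mycD/DCd4 libraries between 3552 and 9175, all above the 668 to 1721 of the TBGR C-mycfl/fl libraries.

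With the libraries of a population summed, *Malat1* stood at 8275 CPM in the CD122+T-bet- population of the TBGR C-mycD/DCd4 mouse, at 8270 CPM in CD122+T-bet-, 6953 in CD122+T-bet high, 6402 in CD122-T-bet- and 5230 CPM in CD122+T-bet int cells of the TBGR mouse, at 3860 CPM in the CD122-T-bet- population of the TBGR C-mycD/DCd4 mouse, and at 1347 CPM in CD122+T-bet-, 1302 in CD122-T-bet-, 1128 in CD122+T-bet high and 999 CPM in CD122+T-bet int cells of the TBGR C-mycfl/fl mouse. Neighbours in this order overlapped in their libraries except at 2 steps, between TBGR CD122+T-bet int and TBGR C-mycD/DCd4 CD122-T-bet- cells and between the latter and the TBGR C-mycfl/fl cells. In log2, the ratio of TBGR to TBGR C-mycfl/fl was 2.30, 2.62, 2.39 and 2.62 in the 4 populations in the order of the sort, or 1.80, 2.31, 2.04 and 2.17 with the marks left out.

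The median log2 ratio of all genes between these mice was itself 0.85, 0.47, 0.46 and 0.60, and 0.36, 0.16, 0.12 and 0.14 with the marks left out. Among all genes with at least 100 transcripts in either group, *Malat1* ranked 71st of 1420, 36th of 2625, 30th of 2344 and 31st of 1194 from the highest TBGR over TBGR C-mycfl/fl ratio. For TBGR C-mycD/DCd4 over TBGR C-mycfl/fl its log2 ratio was 1.57 in CD122-T-bet- and 2.62 in CD122+T-bet- cells (1.21 and 2.66 with the marks left out), the 20th of 924 and the 11th of 1147 genes, in populations where the libraries of 37.1% and 47% of genes did not overlap. These ranks describe the contrast by which *Malat1* was picked.

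A gene was called higher or lower where the summed levels differed at least 1.5-fold, at least 100 transcripts stood in either group, and the libraries of the groups did not overlap, or, for 2 populations within the same 4 TBGR C-mycfl/fl libraries, where the ratio had the same sign in all 4. Of the 6 RNAs, 2 were called higher in TBGR than in TBGR C-mycfl/fl CD122-T-bet- cells (*Malat1* and *Gas5*), where 55.9% of all genes were called higher and 4.3% lower. In CD122+T-bet- cells *Malat1*, *Neat1* and *Gas5* were called higher, against 39.6% of all genes higher and 2.63% lower. The same 3 RNAs were called higher in CD122+T-bet int cells, against 38.9% higher and 3.58% lower, and in CD122+T-bet high cells, against 44.5% higher and 8.79% lower. These shares are large, and the members' counts were read beside them as a description only. For TBGR C-mycD/DCd4 over TBGR C-mycfl/fl, *Malat1* alone was called in CD122-T-bet- cells, where 31% of genes were called higher and 2.16% lower. In CD122+T-bet- cells *Malat1* and *Neat1* were called higher and *Snhg1* lower, against 25.6% of genes higher and 16.6% lower. The call of *Neat1* was lost there with the marks left out, when 26.2% of genes were called higher.

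**Figure D2:**
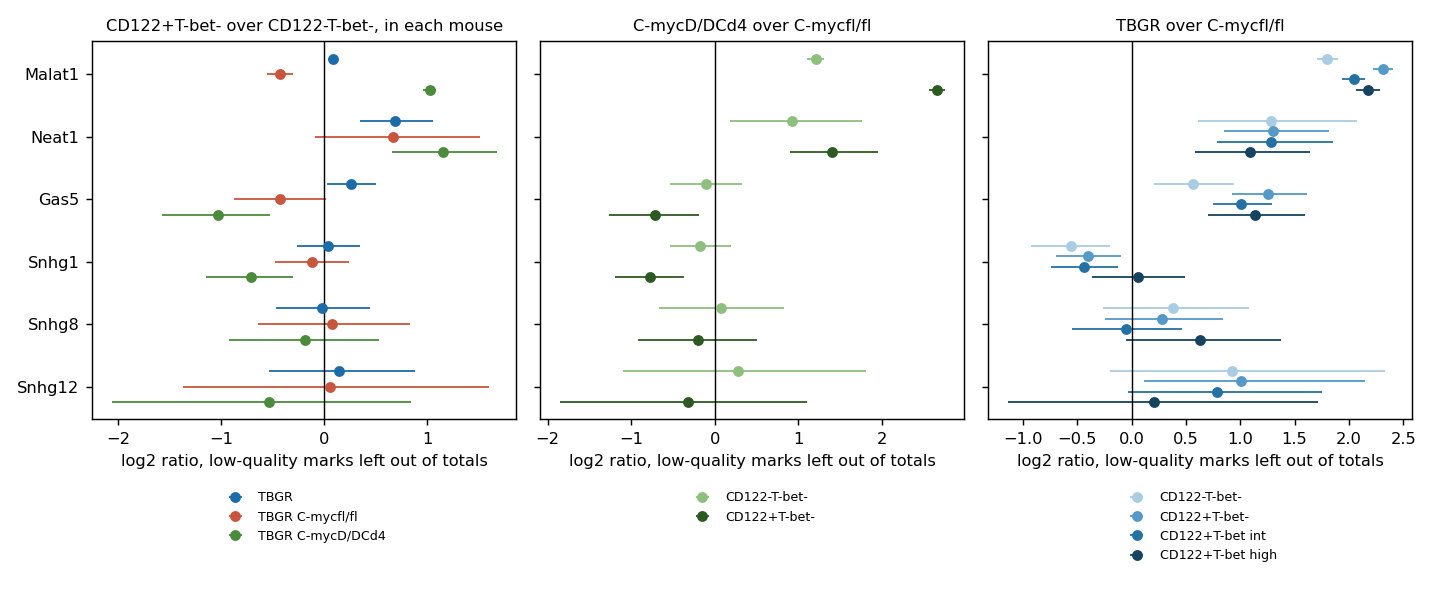
Log2 ratios of the 6 RNAs in the CD122 step of each mouse (the CD122+T-bet- population over CD122-T-bet-), between the TBGR C-mycD/DCd4 and TBGR C-mycfl/fl mice, and between the TBGR and TBGR C-mycfl/fl mice, with the marks of low-quality cells left out of the total. Points are summed libraries and lines are 95% intervals that cover counting error only. *Malat1* lies at 1.80 to 2.31 in the comparison of TBGR with TBGR C-mycfl/fl, whereas *Snhg1* lies at -0.56 to 0.06.

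Per cell, the difference between the mice was a shift of most cells. The median cell held 36, 63, 35 and 31 *Malat1* transcripts in the 4 TBGR populations in the order of the sort, against 6, 5, 5 and 5.5 in the TBGR C-mycfl/fl mouse and 20 and 40 in the T-bet- populations of the TBGR C-mycD/DCd4 mouse. After each cell was thinned to 2000 transcripts, *Malat1* was found in 98.8% to 100% of TBGR cells, in 75.0%, 69.7%, 67.2% and 75.0% of TBGR C-mycfl/fl cells, and in 93.8% and 97.1% of TBGR C-mycD/DCd4 cells. Before thinning the shares in TBGR C-mycfl/fl cells were 88.3%, 85.2%, 83.6% and 89.3%. The marks of low-quality cells were among the transcripts that were thinned, so these shares are not free of them. In each population the marks took a larger part of the transcripts in the TBGR C-mycfl/fl than in the TBGR mouse.

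The cells of the mice nevertheless overlapped. With the marks left out, 52.5% of TBGR C-mycfl/fl CD122-T-bet- cells (46.2% to 62.9% by library, and an exact binomial 95% interval of 43.2% to 61.7% that covers the sampling of cells of 1 mouse only) were at or above the 5th percentile of the TBGR cells of that population, 2822 CPM. The share was 29.5% in CD122+T-bet-, 34.5% in CD122+T-bet int and 24.1% in CD122+T-bet high cells. In the TBGR C-mycD/DCd4 mouse 78.9% of CD122-T-bet- and 91.2% of CD122+T-bet- cells reached it. CD122-T-bet- cells were thus the population in which the distributions of the TBGR C-mycfl/fl and the TBGR mouse overlapped most.

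**Figure D3:**
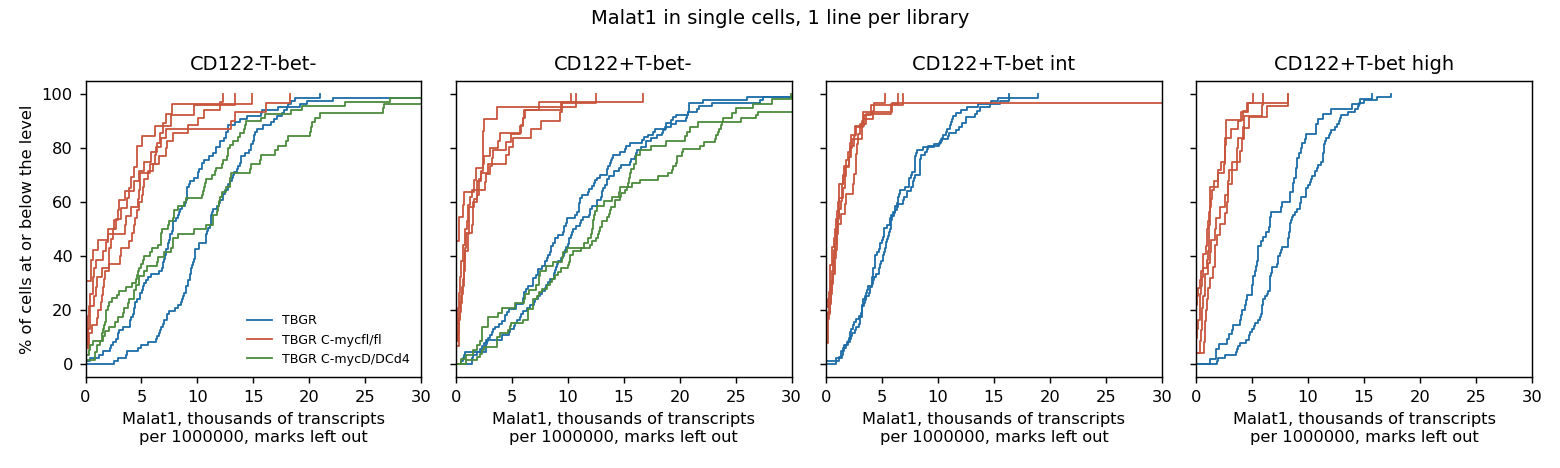
Cumulative percent of cells (vertical axis) at or below a given *Malat1* level in units of 1000 CPM (horizontal axis, cut at the right), with the marks of low-quality cells left out, for each sorted population. Each line is 1 library, coloured by mouse. The lines of the TBGR C-mycfl/fl mouse climb first in all 4 populations, with median cells at 3107, 985, 989 and 1252 CPM against 9321, 10101, 5657 and 8167 CPM in the TBGR mouse.

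Some measures of cell quality moved with *Malat1* within the mice. Within units of the TBGR mouse, the cells in the third with the highest share of marks had more *Malat1* than those in the third with the lowest in 8 of 8 units, with median levels of 8567 and 6425 CPM (marks left out). In the TBGR C-mycfl/fl mouse this was so in 14 of 16 units, at 2500 and 999 CPM, and in the TBGR C-mycD/DCd4 mouse in 3 of 4, at 10211 and 7785 CPM. *Malat1* was therefore higher in cells with more marks in most units of the TBGR and TBGR C-mycfl/fl mice. Across the cells of a unit, its correlation (rho) with the share of marks was above 0 in 7 of 8 TBGR and 15 of 16 TBGR C-mycfl/fl units. In the TBGR C-mycD/DCd4 mouse rho was above 0 in 2 of 4 units, at -0.08 to 0.09 with a median of 0.003. The units of that mouse thus shared no direction by this measure. Between the mice, the marks took 30.5% of transcripts in TBGR, 50.7% in TBGR C-mycfl/fl and 36.8% in TBGR C-mycD/DCd4 CD122-T-bet- cells. The CD122+T-bet- values were 15.3%, 31.4% and 33.3% in the same order of mice.

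Cells with few transcripts had more *Malat1* than cells with many. The third of cells with the fewest transcripts stood at a median of 8644 CPM against 6600 CPM in the third with the most in the TBGR mouse, at 2594 against 1379 CPM in the TBGR C-mycfl/fl mouse, and at 13218 against 6823 CPM in the TBGR C-mycD/DCd4 mouse. The third with most transcripts was above the third with fewest in 0 of 8, 3 of 16 and 0 of 4 units. The mitochondrial share, 6.48% to 13.4% of a unit's transcripts, showed no common direction, since *Malat1* was higher in the third with the larger share in 2 of 8, 8 of 16 and 2 of 4 units.

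*Malat1* was also low in the TBGR C-mycfl/fl mouse in other subsets of wells. When only cells with at most 20% of marks were kept, the log2 ratio of TBGR to TBGR C-mycfl/fl in CD122-T-bet- cells was 3.07. That of TBGR C-mycD/DCd4 to TBGR C-mycfl/fl in CD122+T-bet- cells was 3.28. This kept 721 of the 1413 cells over all mice. Cells with fewer marks held less *Malat1* in most TBGR C-mycfl/fl units, so these ratios are not free of the choice of cells. In the wells that held a cell but fewer than 2000 transcripts, *Malat1* was at 4268 to 6042 CPM in the 4 TBGR populations, at 708 to 1909 CPM in those of the TBGR C-mycfl/fl mouse, and at 7055 and 7724 CPM in the T-bet- populations of the TBGR C-mycD/DCd4 mouse, above the 5434 and 6042 CPM of the same populations of the TBGR mouse. The study's methods name *Malat1* in a clustering setting, among those given for removing variability tied to the cell cycle and to batch. The part of cell quality, of the sequencing run or the library preparation in the difference between mice was not tested.

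Within a mouse, the sorted populations differed less in *Malat1* than either other mouse differed from the TBGR C-mycfl/fl mouse. In CD122+T-bet- cells the main levels of the TBGR and TBGR C-mycD/DCd4 libraries overlapped. In the TBGR mouse CD122+T-bet int cells held 5161 and 5303 CPM against 7546 and 9080 CPM in CD122+T-bet- cells, a log2 ratio of -0.66 (-0.76 with the marks left out). *Malat1* was the only one of the 6 called there, where 9.23% of genes were called lower and 9.76% higher. In the T-bet high step its log2 ratio was 0.41, and 0.02 without the first CD122+T-bet high library, so that this step rested on 1 library and was not called, although it was called higher when ratios were set against the median of all genes. In the TBGR C-mycfl/fl mouse *Malat1* was called in no step, and inside the 4 shared libraries its log2 ratio in the CD122 step was -0.27, -0.27, 0.54 and -0.17. None of the 6 RNAs was called in that step, where 41.3% of genes were called higher and 7.46% lower, nor in the T-bet int step of that mouse, where 1.63% were called higher and 0.0904% lower.

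In the TBGR C-mycD/DCd4 mouse *Malat1* was 2.14-fold higher in CD122+T-bet- than in CD122-T-bet- cells, at 7127 and 9175 against 4342 and 3552 CPM, a log2 ratio of 1.10 (1.02 with the marks left out and 0.70 after thinning). The libraries of the populations did not overlap, as was so for 69.4% of all genes. *Malat1* and *Neat1* were called higher and *Snhg1* lower in this comparison, in which 27.1% of genes were called higher and 22.3% lower. The same step in the TBGR mouse gave a log2 ratio of 0.37, or 0.08 with the marks left out, with overlapping libraries. Whether the step differed between the mice was not tested, since each genotype is treated as 1 mouse.

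Of the lists of markers of other thymic cells, those of CD4+CD8+ thymocytes and of myeloid or dendritic cells moved along this step in each mouse. Ranges of gamma delta T cell and B cell markers overlapped across it in both 2-week mice. NKT cell markers overlapped in the TBGR C-mycD/DCd4 mouse, and thymic epithelial ones in the TBGR and TBGR C-mycfl/fl mice. The part of these lists in the ratios was not tested. In the TBGR C-mycD/DCd4 mouse the summed markers of CD4+CD8+ thymocytes (7 of 7 genes in the tables) were at 469 to 572 CPM in CD122-T-bet- libraries. They were at 97.1 to 102 CPM in its CD122+T-bet- libraries, with *Rag2* and *Ptcra* at 0 in the latter. Those of myeloid or dendritic cells (5 of 6) went from 40.1 to 45.0 CPM to 219 to 289 CPM, with the defining genes *Itgax* and *Csf1r* at 0 in both. The 10 listed cell cycle genes went from 2770 to 3022 CPM to 657 to 699 CPM. In the TBGR mouse the CD4+CD8+ markers were at 640 to 777 CPM before the step and 93.7 to 120 CPM after it. The myeloid or dendritic ones were at 72.4 to 119 and 212 to 388 CPM. The TBGR C-mycfl/fl values were 228 to 347 and 0 to 46.1 CPM, and 12.2 to 44.5 and 158 to 232 CPM. The cell cycle genes rose in the TBGR mouse, from 242 to 387 CPM to 1417 to 1668 CPM, and their ranges overlapped in the TBGR C-mycfl/fl mouse. Between the mice, the CD4+CD8+ markers in CD122-T-bet- libraries were thus highest in the TBGR and lowest in the TBGR C-mycfl/fl mouse. The listed T cell markers stood in the same order there, at 7027 to 7518 CPM in the TBGR and 6078 to 6267 CPM in the TBGR C-mycD/DCd4 mouse. In the TBGR C-mycfl/fl mouse they were at 3110 to 5852 CPM.

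*Neat1*, the paraspeckle scaffold, was likewise low in the TBGR C-mycfl/fl mouse. In CD122-T-bet- cells it was at 88.9 and 92.6 CPM in the TBGR libraries, at 29.1, 37.2, 17.8 and 18.3 CPM in the TBGR C-mycfl/fl libraries, and at 90.3 and 47.2 CPM in the TBGR C-mycD/DCd4 libraries. In CD122+T-bet- cells it was at 142 and 221, at 46.1, 26.7, 81.2 and 106, and at 162 and 142 CPM in the same order of mice. The TBGR C-mycfl/fl libraries were again the lowest, although in CD122+T-bet- cells the one with the fewest cells, at 106 CPM from 10 transcripts, came near the others.

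In CD122+T-bet int cells *Neat1* was at 114 and 160 CPM in the TBGR and at 38.0 to 47.2 CPM in the TBGR C-mycfl/fl libraries, and in CD122+T-bet high cells at 193 and 141 CPM and at 50.1 to 66.0 CPM. From these, the log2 ratio of TBGR to TBGR C-mycfl/fl was 1.78, 1.61, 1.63 and 1.54 in the 4 populations, of which the first could not be called because fewer than 100 transcripts stood in either group. With the marks left out, the ratios were 1.29, 1.30, 1.29 and 1.09, and the call in CD122+T-bet- cells was lost because the libraries overlapped, when 22.3% of genes were called higher. The 4 ratios of *Neat1* lay within each other's counting intervals.

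In the CD122 step *Neat1* was called higher in the TBGR mouse, with 89 and 263 transcripts and a log2 ratio of 0.97 (counting interval 0.63 to 1.34, and 0.69 with the marks left out), as the only one of the 6 where 28% of genes were called higher and 5.05% lower. In the TBGR C-mycD/DCd4 mouse it was called higher with 49 and 108 transcripts and a log2 ratio of 1.23 (0.74 to 1.75, and 1.15 with the marks left out). In the TBGR C-mycfl/fl mouse its log2 ratio was 1.15 from 21 and 44 transcripts, below the minimum for a call, and the 4 libraries gave 0.62, -0.45, 2.06 and 2.38.

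Over the 28 units, *Neat1* and *Malat1* had a Pearson r of 0.77 in log2(CPM + 1), or 0.70 with the marks left out. This is a description, because units of a mouse share libraries, depth and the share of marks. *Malat1* had an r of 0.34 with *Gas5* and of -0.39 with *Snhg1* with the marks left out.

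**Figure D4:**
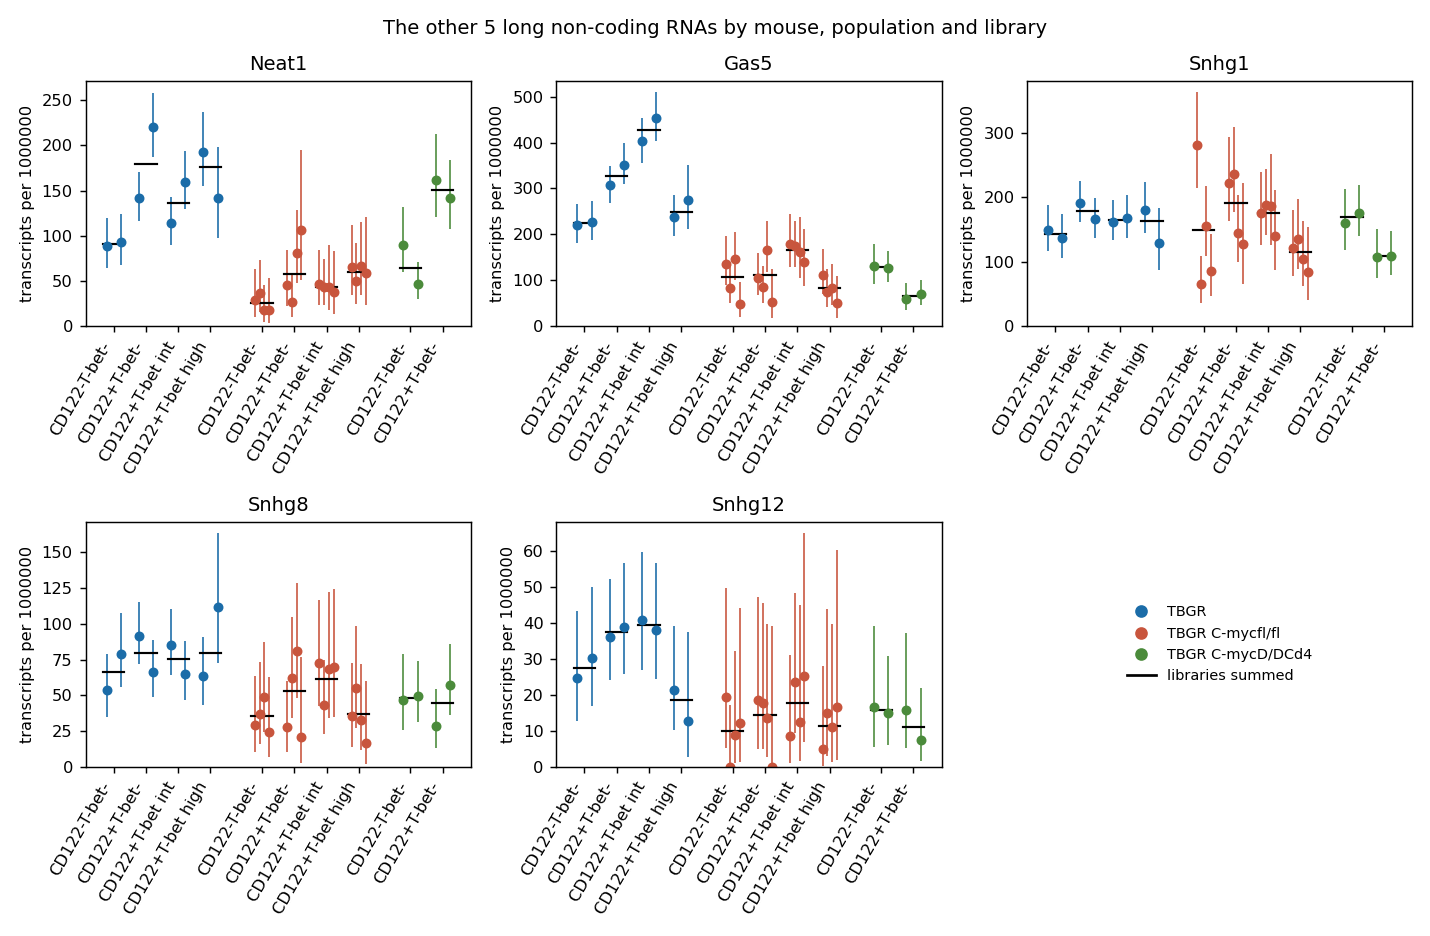
*Neat1*, *Gas5*, *Snhg1*, *Snhg8* and *Snhg12* in transcripts per 1000000 (linear axes from 0) for each library, by sorted population and mouse. Points are libraries with exact 95% Poisson intervals and black bars are the libraries summed. *Gas5* reaches 403 and 454 CPM in CD122+T-bet int cells of the TBGR mouse, while *Snhg1* lies between 129 and 191 CPM in all TBGR libraries.

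*Gas5*, the host with the most snoRNA entries, had its highest level in the CD122+T-bet int cells of the TBGR mouse. Its libraries held 221 and 228 CPM in CD122-T-bet-, 307 and 352 CPM in CD122+T-bet-, 403 and 454 CPM in CD122+T-bet int and 238 and 274 CPM in CD122+T-bet high cells. The libraries did not overlap in any of the 3 steps, as was so for 63.6%, 61.5% and 63.8% of all genes, but the CD122 and T-bet int steps, with log2 ratios of 0.55 and 0.38 (0.26 and 0.28 with the marks left out), were below the fold for a call. The last, at -0.77 (-0.74 with the marks left out), was the only call among the 6 RNAs in that step, in which 26.7% of genes were called lower and 9.47% higher, and the median of all genes was -0.22.

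In the TBGR C-mycfl/fl mouse *Gas5* was likewise lower in the T-bet high step. The 4 shared libraries held 180, 174, 162 and 139 CPM in CD122+T-bet int cells, against 111, 75.2, 82.5 and 50.1 CPM in CD122+T-bet high cells. Over all 4 the ratio was 2.00-fold lower, or -0.86 in log2 with the marks left out. Its log2 ratio was -0.69, -1.18, -0.95 and -1.39 inside the 4 libraries, where both populations passed through the same preparation. *Gas5* and *Snhg1* were called lower in this step, against 12.6% of genes lower and 5.42% higher. The cells of the T-bet- populations held 48.8 to 147 CPM (CD122-T-bet-) and 53.0 to 167 CPM (CD122+T-bet-), with mixed directions in the 4 libraries. With the marks left out, the log2 ratio of *Gas5* in the CD122 step was below 0 in all 4, at -0.55, -0.81, -0.24 and -0.02.

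In the TBGR C-mycD/DCd4 mouse *Gas5* was at 130.5 and 126.5 CPM in CD122-T-bet- and at 60.3 and 69.7 CPM in CD122+T-bet- cells. The libraries did not overlap, as was so for 69.4% of all genes. The log2 ratio was -0.96 (counting interval -1.50 to -0.45, and -1.03 with the marks left out), which missed a call because 98 and 47 transcripts stood behind it. Its direction was opposite to the 0.55 of the TBGR mouse for the same step, a difference that was not tested. Against TBGR C-mycfl/fl, *Gas5* had a log2 ratio of 0.25 in CD122-T-bet- and of -0.75 in CD122+T-bet- cells (-0.11 and -0.71 with the marks left out), neither called.

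*Gas5* was called higher in TBGR than in TBGR C-mycfl/fl cells of all 4 populations, with log2 ratios of 1.06, 1.56, 1.35 and 1.58 in the order of the sort. With the marks left out they were 0.56, 1.25, 1.01 and 1.13, and the first was no longer called, when 31.5% of genes were called higher. The libraries of the mice did not overlap in any population, as was so for 61.5%, 51%, 57.1% and 61.4% of all genes.

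*Snhg1*, whose introns hold the U22 snoRNA and its neighbours, was called in none of the 4 comparisons of the TBGR with the TBGR C-mycfl/fl mouse. The log2 ratio was -0.07, -0.10, -0.09 and 0.51 in the 4 populations, and -0.56, -0.40, -0.43 and 0.06 with the marks left out. Its TBGR libraries ranged from 129 to 191 CPM and its TBGR C-mycfl/fl libraries from 65.1 to 281 CPM, so that the younger mouse spread around the older one.

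In the TBGR C-mycD/DCd4 mouse *Snhg1* was at 161 and 176 CPM in CD122-T-bet- and at 108 and 110 CPM in CD122+T-bet- cells. The log2 ratio of -0.64 (counting interval -1.07 to -0.23, and -0.72 with the marks left out) was called. Against CD122+T-bet- cells of the TBGR C-mycfl/fl mouse, at 221, 236, 144 and 127 CPM, it was -0.81 (-0.77 with the marks left out) and also called. Within the TBGR C-mycfl/fl mouse *Snhg1* was lower in the T-bet high step in all 4 libraries, with a log2 ratio of -0.61 over them, but the call was lost with the marks left out (-0.47), when 7.04% of genes were called lower.

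*Snhg8* and *Snhg12* were called in no comparison. *Snhg8* was at 53.7 to 111 CPM in TBGR libraries, 16.7 to 81.2 CPM in TBGR C-mycfl/fl libraries and 28.6 to 57.3 CPM in TBGR C-mycD/DCd4 libraries, and passed the minimum of 100 transcripts in 3 of 13 comparisons. *Snhg12* was at 12.9 to 40.9, 0 to 25.3 and 7.47 to 16.7 CPM and passed it in 0 of 13. Both had their highest library in the TBGR mouse, and *Snhg12* had no transcript in 2 units of the TBGR C-mycfl/fl mouse.

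Over the 13 comparisons, *Malat1* was called 7 times higher and 1 time lower, *Neat1* 6 times higher, *Gas5* 4 times higher and 2 times lower, and *Snhg1* 3 times lower. Of the 7 calls of *Malat1* as higher, 6 were between mice, the contrast by which it was chosen, and 4 of the calls, 2 of *Neat1* and 1 each of *Gas5* and *Snhg1*, were lost with the marks left out. All genes together had 7893 calls over these comparisons and the counts are a description only. The snoRNAs themselves were hardly seen by this assay, which captures polyadenylated RNA. In all passing cells, *Snord22* of *Snhg1* had 32 transcripts, *Gm25789* of *Gas5* had 20, *Snora24* of *Snhg8* had 15, *Snord47* and *Mir5117* of *Gas5* had 7 and 6, and *Snora16a* of *Snhg12* had 1.

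The 4 hosts summed were at 355 and 367 CPM in CD122-T-bet- and at 213 and 244 CPM in the CD122+T-bet- population of the TBGR C-mycD/DCd4 mouse, a log2 ratio of -0.65 (-0.73 with the marks left out). The libraries did not overlap, as was so for 69.4% of all genes. The ratio depended on how cells were weighed. It was -0.24 when each cell counted the same, -0.29 after thinning to 2000 transcripts and -0.26 in cells with a low mitochondrial share. In the TBGR mouse the sum was at 449 and 473 against 626 and 623 CPM, a log2 ratio of 0.44 (0.15 with the marks left out). In the TBGR C-mycfl/fl mouse it was 0.29 over the populations, or -0.19 with the marks left out, with no direction shared by the 4 libraries.

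The proteins that work with these RNAs were listed with the earlier results of these data known. A listed gene entered with 100 transcripts in either group, so it could enter through the group where it was high. Counts of calls and medians in the lists are therefore a description only. Of the snoRNP proteins, which package snoRNAs into the particles that modify ribosomal RNA, 5 of 5 with enough transcripts were called lower in the CD122 step of the TBGR C-mycD/DCd4 mouse, against 22.3% of all genes, with a median log2 ratio of -1.34 against -0.05 over all genes. Summed without that minimum, the 8 of 9 listed genes that were found stood at 977 to 1781 CPM in CD122-T-bet- and 568 to 607 CPM in CD122+T-bet- libraries. *Dkc1*, the pseudouridine synthase dyskerin, went from 166 to 41.9 CPM (-1.97), *Nop56*, a core protein of C/D box particles, from 404 to 144 CPM (-1.49), and *Fbl*, the methyltransferase fibrillarin, from 155 to 71.2 CPM (-1.12). The hosts *Gas5* and *Snhg1* had ratios of the same sign in that mouse, and *Malat1* and *Neat1* of the opposite sign.

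Against CD122+T-bet- cells of the TBGR C-mycfl/fl mouse, 5 of 5 snoRNP proteins with enough transcripts were again called lower in those of the TBGR C-mycD/DCd4 mouse, against 16.6% of all genes, with a median log2 ratio of -1.46 against -0.02 over all genes. Without that minimum, the 8 genes summed to 1029 to 1766 CPM in the TBGR C-mycfl/fl libraries and 568 to 607 CPM in the TBGR C-mycD/DCd4 libraries. *Nop10*, a small protein of H/ACA particles, went from 226 to 62.8 CPM (-1.83) and *Fbl* from 224 to 71.2 CPM (-1.65). In the TBGR mouse 3 of 7 were called higher in the CD122 step, against 28% of all genes, among them *Nhp2* (1.45) and *Nop58* (1.12). In its T-bet high step 5 of 7 were called lower, against 26.7% of all genes, among them *Nhp2* (-0.93) and *Nop58* (-0.87), the step at which *Gas5* was lower as well. The comparisons of the TBGR C-mycD/DCd4 mouse share its CD122+T-bet- libraries, so they are not independent of each other.

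Proteins of the bodies that hold *Neat1* and *Malat1* had ratios of another direction or size than these RNAs. Of the paraspeckle proteins, 3 of 6 were called lower in the CD122 step of the TBGR C-mycD/DCd4 mouse, among them *Tardbp* (-0.87), and none was called higher, where 22.3% of all genes were called lower and 27.1% higher. Of the nuclear speckle proteins 4 of 10 were called lower, against the same 22.3%, led by the splicing factors *Srsf1*, which was at 350.1 and 174 CPM in that order, and *Srsf2* (-0.99). *Son* and *Srrm2*, the large proteins that form the core of speckles, had log2 ratios of 0.25 and 0.12 and were not called. For TBGR over TBGR C-mycfl/fl CD122-T-bet- cells, where *Malat1* had a log2 ratio of 2.30, 1 of 6 paraspeckle and 2 of 10 nuclear speckle proteins were called higher, against 55.9% of all genes, with medians of 0.57 and 0.31 against 0.85 over all genes.

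Of the cytosolic ribosomal proteins, 22 of 66 were called lower in the CD122 step of the TBGR C-mycD/DCd4 mouse, against 22.3% of all genes, with a median log2 ratio of -0.42. In the comparison with CD122+T-bet- cells of the TBGR C-mycfl/fl mouse, 26 of 67 were called lower, against 16.6% of all genes, with a median of -1.17 (51 of 67 with the marks left out, where 25.3% of all genes were called lower). Of the 9 listed genes that respond within minutes to the handling of tissue, *Fos*, *Jun*, *Junb* and *Egr1* had enough transcripts in the CD122 step of the TBGR C-mycD/DCd4 mouse. They were 4 of 4 higher, against 27.1% of all genes, led by *Junb* (2.10) and *Jun* (1.98). Genes could enter through the population where they were high, so such counts are a description only. The 8 listed genes that were found summed to 304 to 412 CPM in CD122-T-bet- and 861 to 1180 CPM in CD122+T-bet- libraries. The part of such handling, or of another signal that raises these genes, in the *Malat1* ratio of that mouse was not tested. In the TBGR mouse *Fos* (1.03) and *Jun* (0.84) were called higher in the same step, 2 of 5 of that list against 28% of all genes, and *Jun* was not called with the marks left out.

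**Figure D5:**
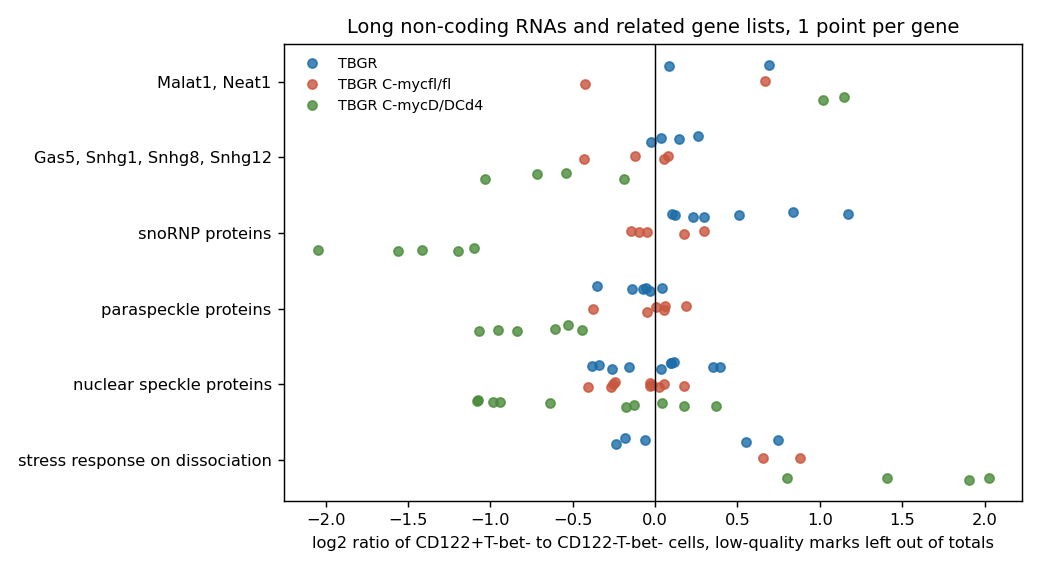
Log2 ratio in the CD122 step (the CD122+T-bet- population over CD122-T-bet-), with the marks of low-quality cells left out, for each gene of the lists (points) in the 3 mice. Listed are *Malat1* and *Neat1*, the 4 snoRNA hosts, and the snoRNP, paraspeckle, nuclear speckle and immediate stress-response genes. Genes of the protein and stress-response lists are shown where either population held at least 100 transcripts. In the TBGR C-mycD/DCd4 mouse *Malat1* and *Neat1* lie at 1.02 and 1.15, whereas the snoRNP proteins shown lie at or below -1.10.

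The other snoRNA hosts and nuclear long non-coding RNAs were mostly under the minimum. Of 21 listed hosts 15 were in the tables, and beside *Gas5*, *Snhg1* and *Snhg8* only *Snhg14* reached 100 transcripts in the CD122 step of the TBGR mouse, where it was called lower at a log2 ratio of -0.81. Of the 12 listed nuclear RNAs only *Kcnq1ot1*, itself one of the marks of low-quality cells, reached it beside *Malat1* and *Neat1*. *Xist* had 8 transcripts in all passing cells. Of the 10 listed factors of nonsense-mediated decay, which breaks down the spliced hosts, 1 reached the minimum in the CD122 step of the TBGR C-mycD/DCd4 mouse and none was called.

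The genes whose log2(CPM + 1) over the 28 units ran most closely with that of *Malat1*, among 1235 genes with at least 1000 transcripts, were *Kmt2a* (Pearson r 0.94), *Noct* (0.94), *Bptf* (0.93), *Pnrc1* (0.93) and *Ankrd12* (0.92), at 0.89 to 0.92 with the marks left out. The units of the TBGR C-mycfl/fl mouse, low in *Malat1*, weigh in these values: within the mice r was 0.62 to 0.80 over the TBGR and 0.36 to 0.89 over the TBGR C-mycfl/fl units. *Kmt2a* and *Bptf* encode chromatin regulators. Among those closest to the 4 hosts summed were *Rpl6l* (0.89), *Rpl7a-ps5* (0.89) and *Gm8225* (0.88), of which the first 2 are named as a ribosomal protein gene and a copy of one, at 0.72, 0.65 and 0.67 with the marks left out. Reads of near-identical copies such as *Rpl7a-ps5* can be split or lost in the counting, so the values of these copies are uncertain.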

How the data were processed

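Single cells were processed by CEL-Seq2, and per the submitters' processing notes reads were demultiplexed with bcl2fastq 2.17.1.14 and aligned with BWA 0.6.2-r126. Per the study's methods, the reference was the GENCODE VM9 transcripts and spike-ins, on the sense strand, reads of several matches were dropped, and overlapping loci were merged. The authors deposited estimated counts of transcripts per gene and cell barcode, corrected for 6-base UMIs drawn more than once, with no filter on cells. Here they were rounded to whole numbers, spike-ins and mitochondrial genes were removed, cells with at least 2000 transcripts were kept, and the study's 2% limit on *Kcnq1ot1* removed no further cell. The study itself kept fewer cells, both of the TBGR mouse and of the younger mice, so the cells used here are not its set. Sorted populations were taken per well from the deposited descriptions.

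Levels are sums with exact 95% Poisson intervals, and log2 ratios are ratios of sums with 0.5 transcripts added and exact conditional binomial 95% intervals. These cover counting error only. The marks are the 4 genes that the study names and those correlated with one above 0.65. Python 3.11.15, numpy 2.4.6, scipy 1.17.1 and pandas 2.3.3 were used. The comparisons were run on simulated counts with planted changes larger than the fold of a call and no spread between libraries. This checks the calculation and not how often calls are wrong. The 14 alternatives are described after the results. The members and lists were chosen with earlier results of these data known. Named genes were the 6 RNAs, genes of each list by size of ratio, the 5 genes most alike in pattern, and *Myc*, *Il2rb* and *Tbx21*. *Son*, *Srrm2* and *Egr1* were named after their values were seen. Doublets were not called, since 1 cell was sorted per well. The barcode list and the barcodes without a cell entered no comparison. Values of a few genes that the rule named are not reported here.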

Additional observations from a re-analysis of the deposited data

Results flagged for a closer look

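In 3 of 28 groups of 4 libraries 1 library stood apart from the others, where chance gives about 1 in 20 groups. The 4 snoRNA hosts summed were at 202 CPM in the fourth library of TBGR C-mycfl/fl CD122+T-bet- cells, the unit with 22 cells, against 373 to 406 CPM in the others. They were at 373 CPM in the fourth library of TBGR C-mycfl/fl CD122+T-bet int cells, against 429 to 438 CPM, and *Snhg8* was at 43.5 CPM in the second of these libraries, against 68.4 to 72.9 CPM.

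On going from CD122-T-bet- cells to those that were CD122+T-bet-, every pair of libraries moved up in the TBGR mouse and down in the TBGR C-mycD/DCd4 mouse for *Gas5*, with log2 ratios of 0.55 and -0.96. In this step the libraries of 63.6% of all genes did not overlap in the TBGR mouse, and those of 69.4% in the TBGR C-mycD/DCd4 mouse. For *Snhg1* the log2 ratios were 0.32 and -0.64, but with the marks of low-quality cells left out the TBGR value was 0.04 and its libraries overlapped. The difference between the mice was not tested.

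Barcodes to which no cell was sorted held transcripts of the nuclear RNAs in number above 3, the limit that a count of 0 allows. *Malat1* had 275 on those of the TBGR, 26 on those of the TBGR C-mycfl/fl and 17 on those of the TBGR C-mycD/DCd4 mouse, and *Neat1* and *Gas5* had 12 and 5 on those of the TBGR mouse. Such barcodes held 0.215% to 4.17% of a library's transcripts, with a median of 0.424%, and 0.725% at most without the library that stood apart.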

How the results depend on the processing

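Each level and ratio was recomputed under 14 alternatives, of which 3, those on the marks of low-quality cells, were chosen after seeing the data, and without each library in turn. No called value among 1274 ratios changed its sign, and 155 moved by more than the spread between libraries. Without a library, 1 of 476 moved, *Malat1* in the T-bet high step of TBGR, 0.018 to 0.57. No paired analysis was possible because the results come from no test; the populations that share the 4 TBGR C-mycfl/fl libraries were compared within them, as values.

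*Malat1*, in log2: relative to the median of all genes, TBGR over TBGR C-mycfl/fl was 1.45 in CD122-T-bet-, 1.92 in CD122+T-bet int and 2.03 in CD122+T-bet high cells, and the CD122 step of TBGR C-mycfl/fl was -0.58. With the marks left out, the latter was -0.43 and the CD122+T-bet int value 2.04 (2.09 in cells with 2000 transcripts besides the marks, 2.72 in cells at or under the median mitochondrial share). In cells with at most 20% of marks it was 3.07 for TBGR over TBGR C-mycfl/fl CD122-T-bet- cells, 3.28 for TBGR C-mycD/DCd4 over TBGR C-mycfl/fl CD122+T-bet- cells and 1.93 for the CD122 step of TBGR C-mycD/DCd4, the last being 0.70 after thinning.

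The 4 hosts summed, in the CD122 step of TBGR C-mycD/DCd4, were at -0.24 with cells weighed equally, -0.29 after thinning and -0.26 in cells of low mitochondrial share. For TBGR over TBGR C-mycfl/fl CD122-T-bet- cells, not called at 0.61, they were at -0.24 relative to the median and at 0.11, -0.04 and -0.30 under the 3 alternatives on the marks. For CD122+T-bet int cells they were at 0.75, and at 0.55 with cells weighed equally, 0.53 after thinning, 0.28 relative to the median, 0.40 with the marks left out, 0.39 in cells with 2000 transcripts besides the marks and 0.22 with at most 20% of marks. In CD122+T-bet high cells they were at 1.05, and at 0.46 relative to the median, 0.60, 0.56 and 0.66 under the 3 alternatives on the marks. Over all genes and comparisons, 7893 calls became 4063 with a fold of 2 and 33895 with a minimum of 10 transcripts, and a fold of 2 left 1 of 6 calls of an RNA as lower. With ratios set against that median, 4 calls were lost (*Gas5* in the T-bet high step of TBGR, *Snhg1* in that of TBGR C-mycfl/fl, and, for TBGR over TBGR C-mycfl/fl, *Gas5* in CD122-T-bet- and *Neat1* in CD122+T-bet- cells) and 2 gained (*Malat1* and *Neat1* in the T-bet high step of TBGR). Depth limits the hosts: *Snhg12* never had 100 transcripts in a group.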
